A study of Mus musculus with 36 samples.

Results

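The genes described here are the nuclear genes for subunits of the mitochondrial respiratory chain and ATP synthase, followed across 3 brain regions and 4 mouse genotypes. They were chosen by symbol alone: protein-coding genes whose GENCODE M21 symbol starts with Nduf plus A, B, C, S or V and a digit, with Uqcr, with Cox4 to Cox8 plus a letter, or with Atp5. The rule found 80 genes among the 38924 Ensembl identifiers counted in every library. By symbol and known membership, 35 were placed with complex I, 8 with complex III, 20 with complex IV and 17 with complex V. Atp5s and Cox7a2l were placed with complexes V and IV by symbol. Ndufa4 and Ndufa4l2 were placed with complex IV, where the NDUFA4 protein is found, although their symbols read as complex I. Cyc1 and Ndufab1 are subunits that the symbol rule does not reach, and they are counted below with related genes.

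The RNA came from hypothalamus, brainstem and cortex of C57BL/6 mice, and 3 libraries per genotype and region gave 36 libraries in 12 groups. The mutant genotypes were Hcrt/Orexin-ataxin-3 transgenic mice (tg/+) and Hcrt/Orexin knockout mice (KO). In the first, ataxin-3 made in the hypocretin (orexin) cells ablates these cells, and in the second the Hcrt gene is knocked out. Wild types (+/+) of the same line served as controls for each model, and the models shared none. The sources used here give neither age nor sex of the mice. The labels number the libraries of a group without saying that each is a separate animal, so p-values measure the spread between these libraries.

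Oxidative phosphorylation moves electrons from NADH and succinate through complexes I to IV to oxygen, and the protons pumped on the way drive ATP synthase, complex V. Complexes I, III, IV and V each combine subunits encoded in the nucleus with a few encoded in mitochondrial DNA. Neurons depend on this pathway for most of the ATP that ion pumping and synaptic transmission use, and several complex IV subunits exist as alternative copies that differ between tissues.

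A library held 21915540 to 47057537 gene counts, and members took 0.655% to 1.28% of them. Region identity held: 8 hypothalamic marker genes summed to between 774.3 and 1340 CPM in hypothalamus libraries and to at most 4.07 CPM elsewhere, 6 brainstem genes to between 477.9 and 656.9 CPM in brainstem and at most 1.53 CPM elsewhere, and 6 cortical genes to between 1669 and 1849 CPM in cortex and at most 202.9 CPM elsewhere. CPM is the count of a gene relative to the library's gene counts (cpm in edgeR), scaled by TMM (trimmed mean of M values) factors. Hcrt had 91, 63 and 122 counts in transgenic hypothalamus, against 5244, 3296 and 7126 in its wild type. It had 34, 39 and 34 counts in knockout hypothalamus, against 3192, 2000 and 2266 in its wild type. Some Hcrt counts were also present in knockout brainstem (29, 27 and 42, against 5, 0 and 2 in its wild type). Knockout cortex held 17, 10 and 9, against 1, 30 and 1. In hypothalamus, transgenic library 1 held nasal transcripts and 3 wild-type libraries held pituitary transcripts, with 12460 to 23750 CPM of growth hormone (Gh). The cortical genes summed to between 9.966 and 148.1 CPM in hypothalamus libraries, with a median of 20.52 CPM. Slc17a7, at 1173 to 1304 CPM in cortex, had 126.2 and 93.93 CPM in hypothalamus libraries 1 and 3 of the Hcrt line's wild type. The other hypothalamus libraries held 0.5953 to 13.1 CPM of it, and the cause was not tested.

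In 4 libraries the members as a group stood apart from the other libraries of the same region. The median member lay 0.50 log2 units above the regional median in Hcrt knockout hypothalamus library 1, and 77 of the 77 members measured lay above it. It lay 0.51 above in ataxin-3 transgenic cortex library 1, with 76 of 76 members above. It lay 0.19 and 0.24 log2 units below in libraries 1 and 2 of the ataxin-3 line's wild type in brainstem, while the other 32 libraries lay between -0.12 and 0.15. Other genes moved with the members in these libraries. Cytosolic ribosomal protein genes deviated by 0.59 and 0.54 in the knockout hypothalamus and transgenic cortex libraries. Short mRNAs outside the list (up to 1000 bases) exceeded long ones (over 4000 bases) there by 0.64 and 0.62, against -0.10 to 0.17 in the 32 others. In the 2 brainstem libraries reads assigned to no gene made up 32.3% and 42.0% of the total, against 24.7% to 31.2% in the 32 others. The part of short transcripts and unassigned reads in the members' levels was not tested, and each genotype result that rests on these 4 libraries is given with and without them.

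**Figure D1:**
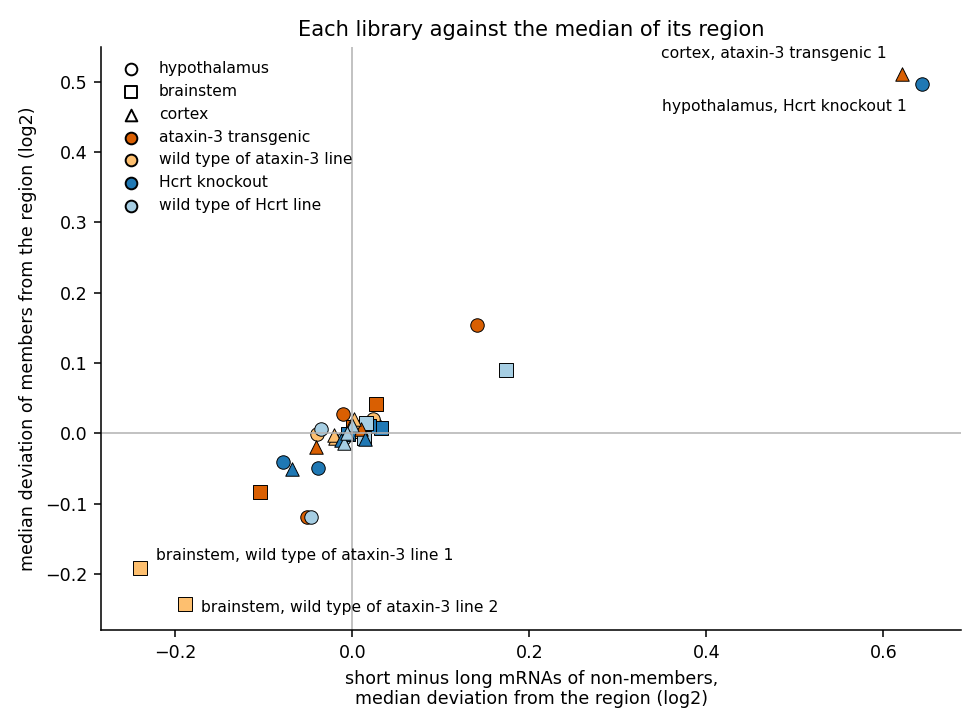
Each point is a library; the horizontal axis is the median deviation of short minus long mRNAs of non-members from the median of its region, and the vertical axis that of the members, both on the log2 scale. Hcrt knockout hypothalamus 1 (0.64, 0.50) and transgenic cortex 1 (0.62, 0.51) sit at the upper right, libraries 1 and 2 of the ataxin-3 line's wild type in brainstem at the lower left, and the other 32 libraries near the centre.

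Members were among the most abundant transcripts of each region. Per length, in TPM (counts divided by merged exon length and scaled to the same total in each library), the median member stood at 193.8 TPM in hypothalamus, 250.6 TPM in brainstem and 161.7 TPM in cortex. Of the 80 members, 58, 64 and 56 reached the 90th percentile of protein-coding genes in those regions, and 2, 3 and 2 stayed under 1 TPM. The summed TPM was divided unevenly among the complexes. Complex I genes held 34.4% of it in hypothalamus, 32.0% in brainstem and 30.9% in cortex, and complex IV genes 27.2%, 30.4% and 32.2% in the same order. Complex III stayed between 11.9% and 12.5%, and complex V between 24.9% and 25.8%.

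Which member of a complex stood highest per length depended on the length used, so both are given: merged exons (mean ± SD, n = 12), and the principal transcript of GENCODE's APPRIS tag (means of the same 12 libraries). In complex V, Atp5b, the catalytic beta subunit, led in each region over the principal transcript, at 1464, 2017 and 1361 TPM in hypothalamus, brainstem and cortex, with Atp5a1, the alpha subunit, next at 911.1, 1016 and 779.7 TPM. Over merged exons Atp5a1 had 1020 ± 75.4 TPM and Atp5b 940.4 ± 66 TPM in hypothalamus, and the ranges of 1 SD around the means of these genes overlapped in each region. In complex IV, Cox4i1, the largest of its nuclear subunits, led over the principal transcript, at 1016, 1484 and 1041 TPM in the same order, against 632.6, 798.7 and 848.1 TPM for Cox8a, a small membrane subunit. Over merged exons Cox8a had more than Cox4i1 in hypothalamus (798 ± 81.7 against 712 ± 82.2 TPM) and cortex (1074 ± 116 against 732 ± 71.5 TPM), with ranges of 1 SD that overlapped in hypothalamus and not in cortex. In complex III, Uqcrh, the hinge protein, led over the principal transcript, at 699.6, 934.7 and 562.8 TPM, and over merged exons it had 439 ± 60.1, 589.8 ± 142 and 355 ± 37.9 TPM, in cortex beside 355 ± 43.3 TPM for Uqcr10, a small subunit. In complex I, Ndufb9, an accessory subunit, was highest in cortex by both lengths (364 ± 39 TPM over merged exons and 374.4 TPM over the principal transcript). Ndufc2, another, was highest in hypothalamus and brainstem over merged exons (436 ± 54.5 and 486 ± 102 TPM). Over the principal transcript Ndufa6 was highest in hypothalamus, at 339.9 TPM, and Ndufb9 in brainstem, at 452.5 TPM. Ndufc2 had 338.5 and 376.9 TPM there in these 2 regions, and Ndufb10 338.6 and 426.5 TPM. The lowest were Cox8c, the testis copy of Cox8 (0 to 2 counts per library), Atp5l, the g subunit of ATP synthase (under 1 TPM in each region), and Ndufb4 (14.5 to 16.6 TPM), over merged exons. The merged exons of Atp5l span 6443 bases and its principal transcript 544, over which it had 4.43, 7.43 and 7.92 TPM in hypothalamus, brainstem and cortex. Both Atp5l and Ndufb4 have near-identical copies elsewhere in the genome, 9 for Atp5l and 1 for Ndufb4, and how reads matching several places were counted is not given, so their levels are uncertain. In all, 16 members have a near copy, among them Atp5f1, Atp5g2, Atp5o, Cox5b, Cox7c and Ndufs3. Ndufv2, Cox5a, Uqcrc2, Ndufb2, Ndufa13 and Atp5o overlap a gene on the other strand, and Ndufb8 one on its own strand. Uqcrq was the lowest of complex III (128 ± 14.1, 173 ± 35.9 and 130.1 ± 18.9 TPM). The wide SD of TPM in brainstem includes 1 library, replicate 2 of the ataxin-3 line's wild type, which summed to 2879 TPM for complex I against 6208 to 8644 TPM in the other 11.

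Members were higher in brainstem than in cortex almost without exception. Summed over the 80 genes, brainstem libraries held 11870 ± 687.2 CPM and cortex libraries 7294 ± 675.2 CPM (SD, n = 12 each), a ratio of 1.63. The 2 ranges, 10300 to 12450 CPM and 6877 to 9420 CPM, did not overlap. In TPM over merged exons the ratio of the means was 1.405. The ranges overlapped on that scale, at 9351 to 26890 TPM (median 25460) in brainstem and 15660 to 21760 TPM (median 16650) in cortex. Of 79 members tested, 74 were higher, 1 was lower and 4 did not pass the threshold (edgeR's quasi-likelihood test on all 36 libraries, Benjamini-Hochberg adjusted p under 0.05). In the same comparison 84.7% of all 17744 genes tested passed, 43.1% higher and 41.6% lower. The median member log2 fold change was 0.69, against 0.02 over all genes tested. In bulk tissue a difference in the number of cells of a type and a difference in RNA per cell cannot be told apart.

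**Figure D2:**
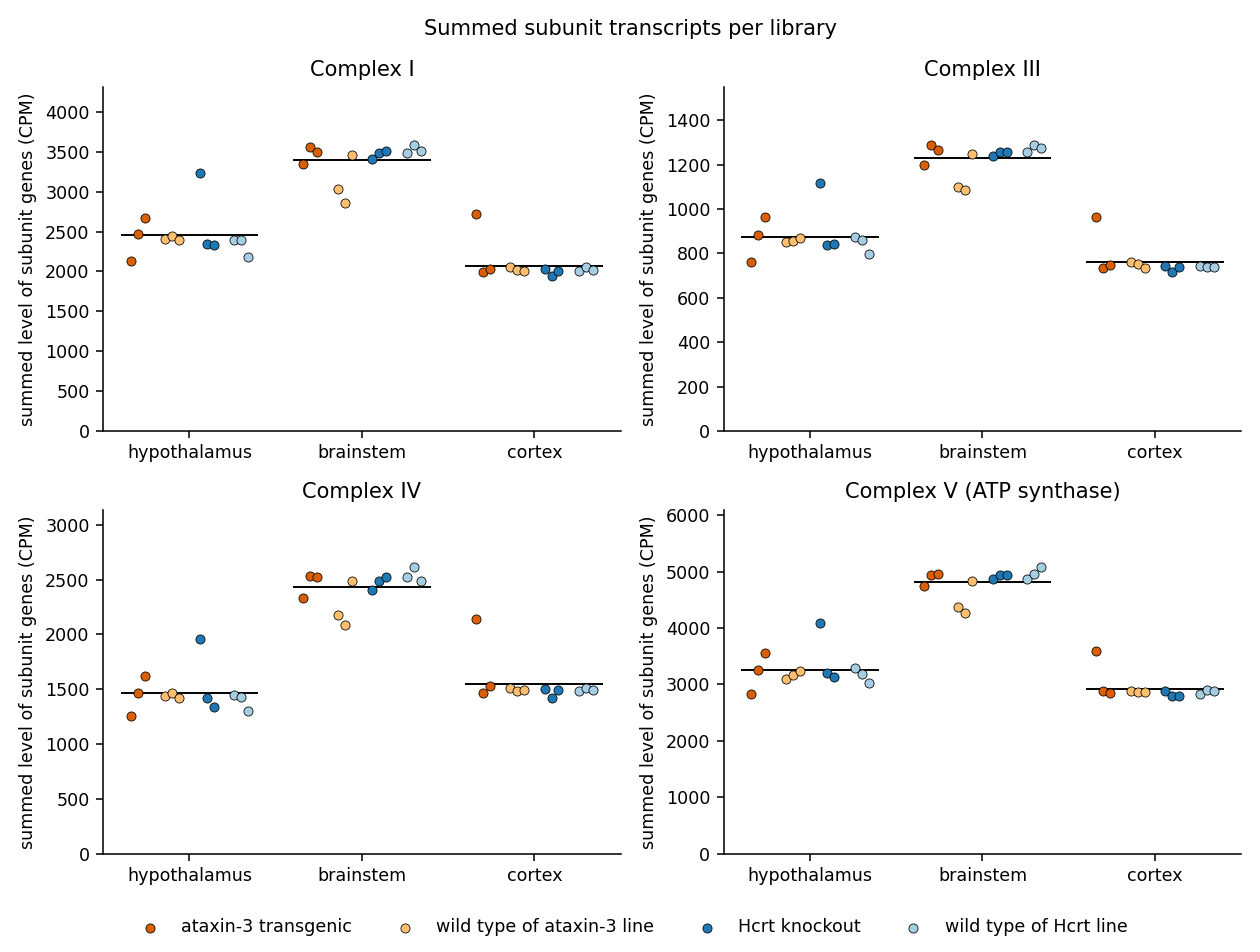
Summed level of the genes of each complex (vertical axes, TMM-scaled CPM) in each of 36 libraries, by region; colours mark the genotypes and bars the mean of 12 libraries. Means are highest in brainstem in all 4 panels, and Hcrt knockout hypothalamus 1 and ataxin-3 transgenic cortex 1 lie above the rest of their regions.

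All 35 complex I genes were higher in brainstem than in cortex, with a median log2 fold change of 0.68. Those with the largest change among genes whose libraries did not overlap between the regions were Ndufv2 and 3 accessory subunits of the membrane arm. Ndufv2, an iron-sulphur protein of the NADH-binding module, had a lowest, median and highest level of 179.9, 216 and 239 CPM in brainstem and 92, 102 and 144 CPM in cortex, a log2 fold change of 1.02 (SE 0.061, adjusted p = 8.71e-16). Every brainstem library was above every cortex library. Ndufb8 had 74.8, 98.1 and 118 CPM in brainstem and 45.5, 48 and 58.9 CPM in cortex, a log2 fold change of 1.00 (SE 0.0529, adjusted p = 2.51e-17), again without overlap. Ndufa11 and Ndufa3 differed by 0.98 (SE 0.0645) and 0.97 (SE 0.0768). Core subunits with smaller differences included Ndufv1, which oxidises NADH, at 0.50 (SE 0.0481), and Ndufs1, the largest iron-sulphur subunit, at 0.60 (SE 0.033). The smallest differences were those of Ndufs3, another core subunit, at 0.35 (SE 0.0468) and of Ndufb4 at 0.38 (SE 0.0746).

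All 8 complex III genes were higher in brainstem, by a median of 0.65. Uqcrc1, a core protein on the matrix side, had 254, 288 and 304 CPM in brainstem and 159, 165 and 207 CPM in cortex, a log2 fold change of 0.76 (SE 0.0435, adjusted p = 1.61e-16), with no overlap. Uqcrfs1, the Rieske iron-sulphur protein that passes electrons on from ubiquinol, differed by 0.71 (SE 0.0442), and Uqcrc2, the other core protein, by 0.62 (SE 0.0279). Uqcrh showed the largest fitted difference, 0.90 (SE 0.0704), but its lowest brainstem library (143.3 CPM) lay below the highest cortex library (157.7 CPM). Both are libraries that stood apart. Without the libraries that stood apart, the lowest brainstem value was 208.2 CPM and the highest cortex value 118.2 CPM. Uqcr11, a small subunit, was least different at 0.30 (SE 0.0739).

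Of 17 genes placed with complex V, 16 were higher in brainstem and 1, Atp5l, did not pass (0.09, SE 0.0992, adjusted p = 0.396). Atp5b had 1415, 1631 and 1754 CPM in brainstem and 910.2, 947 and 1104 CPM in cortex, a log2 fold change of 0.75 (SE 0.0357, adjusted p = 1.62e-18). Brainstem and cortex libraries did not overlap. In the stalk and membrane part, Atp5mpl, a small proteolipid, differed by 0.99 (SE 0.0743), Atp5o, which holds the stalk to the catalytic head, by 0.98 (SE 0.0566), and Atp5f1, the b subunit of the stalk, by 0.88 (SE 0.0477). The 3 genes for the identical c-ring protein did not move equally: Atp5g3 differed by 0.96 (SE 0.0581), Atp5g1 by 0.86 (SE 0.0502) and Atp5g2 by 0.54 (SE 0.0526). Atp5g3 carried most of the c-ring message in each region, since Atp5g1 stood at a median of 16.7% to 19.1% of the TPM of Atp5g3 and Atp5g2 at 8.68% to 11.8%, over merged exons. Over the principal transcripts Atp5g1 stood at 5.77% to 6.60% and Atp5g2 at 6.59% to 8.92%, so the order of the 2 smaller genes turned with the length used.

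Complex IV was the most mixed. Of 19 genes tested, 15 were higher in brainstem, 1 was lower (Cox6a2) and 3 did not pass (Cox8a, Cox4i2 and Ndufa4l2), around a median of 0.71. No overlap between the groups was seen for 40 of the 79 members in the higher direction and 1 in the lower, where 24.9% and 27.1% of all genes had none. These counts include the brainstem and cortex libraries that stood apart. Among the common copies, Cox5a, which binds the matrix face of the enzyme, had 194, 215 and 229.7 CPM in brainstem and 96.7, 102 and 145 CPM in cortex, a log2 fold change of 1.04 (SE 0.0613, adjusted p = 6.68e-16). Every brainstem library exceeded every cortex library. Ndufa4 differed by 0.88 (SE 0.0648), Cox7b, a membrane subunit, by 0.85 (SE 0.0579), and Cox4i1 by 0.68 (SE 0.0616). Cox8a had 164, 187 and 204 CPM in brainstem and 145, 168 and 233 CPM in cortex, and its log2 fold change of 0.11 (SE 0.0567, adjusted p = 0.0752) did not pass. Cox6a1 differed by 0.35 (SE 0.0579).

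The difference was seen in each genotype and without the libraries that stood apart. Computed within each genotype, without a test, 74 of 79 members were higher in brainstem in all 4 genotypes, with medians of 0.58 in transgenic mice and 0.62 in their wild type, and 0.78 in knockout mice and 0.80 in their wild type. Without the 4 libraries 75 members were higher and 1 lower, with a median of 0.79. Markers of cell types also differed between the regions: 8 oligodendrocyte markers summed to between 17220 and 21230 CPM in brainstem and between 3610 and 4807 CPM in cortex, with 8 of 8 higher, 6 parvalbumin interneuron markers to a median of 1442 CPM in brainstem and 449.9 CPM in cortex, and 9 neuronal markers to 10410 and 9236 CPM. The interneuron and neuronal sums weigh their most abundant genes most and do not show how many genes of each list went either way. They are not counts of cells. Non-member mRNAs of up to 1000 bases were also higher in brainstem, by a median of 0.43. The part of cell composition and transcript length in the members' difference was not tested.

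Hypothalamus and cortex differed less, and by complex. Summed members reached 8044 ± 859.3 CPM in hypothalamus and 7294 ± 675.2 CPM in cortex (SD, n = 12 each), a ratio of 1.103, and the ranges overlapped. In TPM over merged exons the ratio was 1.088. Of 79 members, 50 were higher in hypothalamus, 10 lower and 19 did not pass, where 83.0% of all genes tested passed, 42.7% higher and 40.3% lower. The median member log2 fold change was 0.21, against 0.03 over all genes. Complex I held 30 of the 50 higher genes and 2 lower ones (median 0.30), complex III 5 and 0 (0.22), complex V 11 and 2 (0.17), and complex IV 4 and 6 (-0.0038). Summed complex IV genes were slightly lower in hypothalamus, at 0.95 of the cortical level, while complex I genes stood at 1.18. Markers of cell types differed here too: 9 neuronal markers summed to a median of 5696 CPM in hypothalamus and 9236 CPM in cortex, 7 astrocyte markers to 3252 and 5394 CPM, 8 oligodendrocyte markers to 5156 and 4170 CPM, and 6 parvalbumin interneuron markers to 367.8 and 449.9 CPM. Such sums weigh abundant genes most, do not show how many genes of a list went either way, and are not counts of cells. Non-member mRNAs of up to 1000 bases had a median of 0.39. The part of cell composition and transcript length in the members' differences was not tested here either.

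The 12 hypothalamus libraries lay wholly above the 12 cortex libraries for 2 members and wholly below for 4, where 22.3% and 22.6% of all genes did so. The 2 were Ndufb2, an accessory complex I subunit, with 32.3, 36.3 and 41.5 CPM in hypothalamus and 23.3, 26.1 and 31.5 CPM in cortex, and Uqcrc2, with 196, 216 and 247 CPM in hypothalamus and 174, 179 and 187 CPM in cortex. Their log2 fold changes were 0.43 (SE 0.0399, adjusted p = 2.07e-11) and 0.28 (SE 0.0278, adjusted p = 1.32e-10). The count of 2 rests in part on transgenic cortex library 1, which stood apart. For Ndufa6 that library held 71.87 CPM, against at most 53.89 CPM in the other cortex libraries and at least 61.91 CPM in hypothalamus. For Cox7a2l these values were 82.94, 66.25 and 82.47 CPM. The share of all genes without that library was not computed. The 4 below were Cox6a2, Cox6a1, Cox8a and Atp5l. Cox6a1 had 93.3, 109.9 and 129 CPM in hypothalamus and 136, 161 and 231 CPM in cortex, a log2 fold change of -0.58 (SE 0.0582, adjusted p = 1.67e-10). Cox8a had 104, 128 and 143 CPM in hypothalamus, below every cortex library, and changed by -0.44 (SE 0.0569, adjusted p = 2.81e-08). Cox6a1 and Cox8a were thus apart from most common complex IV genes, such as Cox4i1 (-0.06, SE 0.0614), Cox5b (0.02, SE 0.0583) and Cox7c (-0.03, SE 0.0591), which did not pass. Among the higher genes placed with complex IV, Cox7a2l changed by 0.51 (SE 0.0439, adjusted p = 5.64e-12). Computed within each genotype, without a test, 48 members were higher and 9 lower in all 4. The medians were 0.085 in transgenic mice and 0.216 in their wild type, and 0.355 in knockout mice and 0.186 in their wild type. The lowest median was that of the genotype with the cortex library that stood apart. The highest was that of the genotype with the hypothalamus library that stood apart. Without the 4 hypothalamus libraries that held pituitary or nasal transcripts, 52 members were higher and 5 lower.

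**Figure D3:**
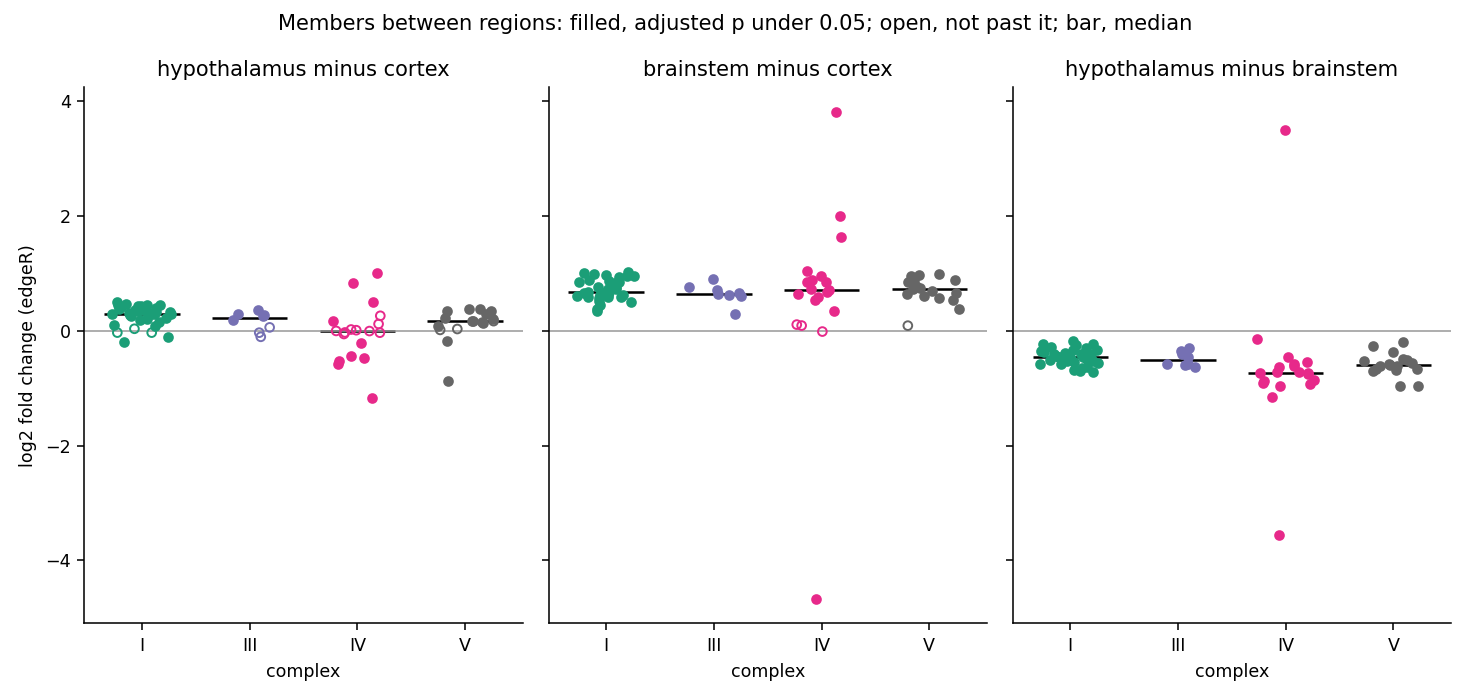
Log2 fold change of each tested member (vertical axis) by complex for the 3 region comparisons; filled points passed the adjusted p threshold of 0.05, open points did not, and bars are medians. Points lie above 0 for brainstem minus cortex and below 0 for hypothalamus minus brainstem, apart from Cox6a2 and a few open points, while complex IV straddles 0 in hypothalamus minus cortex.

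Hypothalamus against brainstem uses the same libraries as the preceding comparisons, so its values are given beside them and not as a further result. Here 78 of 79 members were lower in hypothalamus and 1, Cox6a2, was higher, where 76.8% of all genes tested passed, 40.8% higher and 36% lower. The median was -0.54, and the summed level was 0.68 of that in brainstem in CPM and 0.77 in TPM over merged exons. The groups did not overlap for 21 members that were lower and 1 that was higher, where 15.4% and 18.9% of all genes did so. Complex IV had the lowest median (-0.74), followed by complex V (-0.60), complex III (-0.52) and complex I (-0.46). The largest gap without overlap in complex I was that of Ndufa10, -0.71 (SE 0.0409). In complex V they were Atp5mpl, -0.97 (SE 0.0741), Atp5l, -0.96 (SE 0.103), and Atp5f1, -0.71 (SE 0.0476). Side by side, 50 members had the order brainstem over hypothalamus over cortex with each step past the threshold. For 19 more the hypothalamus and cortex could not be told apart, and for 5 (Ndufb9, Ndufs3, Cox6a1, Cox6c and Atp5d) the order was brainstem over cortex over hypothalamus.

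The widest log2 differences between brainstem and cortex were those of complex IV copies best known from striated muscle or testis, Cox6a2, Cox8b, Cox7a1 and Cox6b2. All of them were rare here beside their common partners. Cox6a2, the heart and skeletal muscle copy of subunit 6a (ENSMUSG00000030785, chr7:128205435-128206387, minus strand, GRCm38), was the only member of 79 tested with the order cortex over hypothalamus over brainstem past the threshold at each step. Its locus overlaps Itgad on the other strand, and the strand setting of the counting is not given. It had 1.81, 2.26 and 2.82 CPM (lowest, median and highest) in hypothalamus, 0.0774, 0.18 and 0.455 CPM in brainstem and 4.09, 5.14 and 8.05 CPM in cortex. No region overlapped another. Its log2 fold change was -4.68 (SE 0.168, adjusted p = 1.07e-21) between brainstem and cortex, -1.18 (SE 0.124, adjusted p = 4.45e-10) between hypothalamus and cortex and 3.50 (SE 0.172, adjusted p = 8.08e-18) between hypothalamus and brainstem. Even in cortex its TPM was a median of 3.48% of that of Cox6a1, the liver-type partner, against 2.15% in hypothalamus and 0.0861% in brainstem.

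Cox8b, the muscle copy of subunit 8 in mouse (ENSMUSG00000025488, chr7:140898945-140900446, minus strand), was highest in brainstem. It had 1.29, 1.56 and 1.69 CPM in brainstem and 0, 0.104 and 0.272 CPM in cortex, a log2 fold change of 3.82 (SE 0.385, adjusted p = 2.68e-10). Brainstem libraries held 31 to 64 Cox8b counts each and cortex libraries 0 to 7. Hypothalamus libraries held 0 to 5 counts except transgenic library 1, which held 53 and is the library with nasal transcripts, and the difference from cortex, 0.26 (SE 0.548, adjusted p = 0.665), did not pass and turned to -0.91 without the libraries holding pituitary or nasal transcripts. Cox8b stood at a median of 1.46% of the TPM of Cox8a in brainstem, 0.0912% in hypothalamus and 0.109% in cortex. Cox8c had 2 counts in 1 hypothalamus and 1 cortex library and 0 in the other 34, where a count of 0 allows up to 3 counts by counting error alone, and was not tested.

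Cox7a1, the muscle copy of subunit 7a (ENSMUSG00000074218, chr7:30184144-30186078, plus strand), was highest in brainstem, with 0.881, 1.32 and 2.18 CPM in hypothalamus, 2.55, 3.22 and 3.93 CPM in brainstem and 0.477, 0.806 and 1.17 CPM in cortex. Brainstem stood clear of both other regions, which overlapped. It changed by 2.00 (SE 0.132, adjusted p = 7.11e-15) between brainstem and cortex and by 0.84 (SE 0.136, adjusted p = 1.52e-06) between hypothalamus and cortex, while its partner Cox7a2 changed by 0.74 (SE 0.0641) and 0.01 (SE 0.064), the second not past the threshold. Cox6b2, the testis copy of subunit 6b (ENSMUSG00000051811, chr7:4751792-4753094, minus strand), had 1.51, 2.42 and 3.24 CPM in hypothalamus, 2.92, 3.75 and 4.37 CPM in brainstem and 0.785, 1.2 and 1.76 CPM in cortex. Brainstem and hypothalamus overlapped, and brainstem and cortex did not. It changed by 1.63 (SE 0.112, adjusted p = 1.89e-14) between brainstem and cortex, and its partner Cox6b1 by 0.85 (SE 0.0638). Cox7b2, another testis copy, changed by 0.96 (SE 0.189) between brainstem and cortex, on 5 to 26 counts per library there.

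The copies known for low oxygen behaved otherwise. Cox4i2, which replaces Cox4i1 under low oxygen, and Ndufa4l2, which rises under hypoxia, were both lower in hypothalamus than in cortex, with log2 fold changes of -0.47 (SE 0.145, adjusted p = 0.00392) and -0.53 (SE 0.0956, adjusted p = 9.13e-06), and neither differed past the threshold between brainstem and cortex (-0.01 (SE 0.143) and 0.09 (SE 0.0937)). Cox4i2 stood at a median of 0.594%, 0.496% and 0.729% of the TPM of Cox4i1 in hypothalamus, brainstem and cortex, and both genes are also known from vascular mural cells, whose list of 8 endothelial and pericyte markers was lower in hypothalamus than in cortex for 8 of 8 genes. That list's part in their levels was not tested. Striated muscle markers were scarce in all regions and ranked as Cox6a2 did and not as Cox8b or Cox7a1: 7 genes, 6 of which were tested, summed to 4.598 to 7.283 CPM in hypothalamus, 1.66 to 3.45 CPM in brainstem and 8.58 to 13.5 CPM in cortex. The median of 1 of the 7 was 0 in hypothalamus. Their part in the level of Cox6a2 was not tested.

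**Figure D4:**
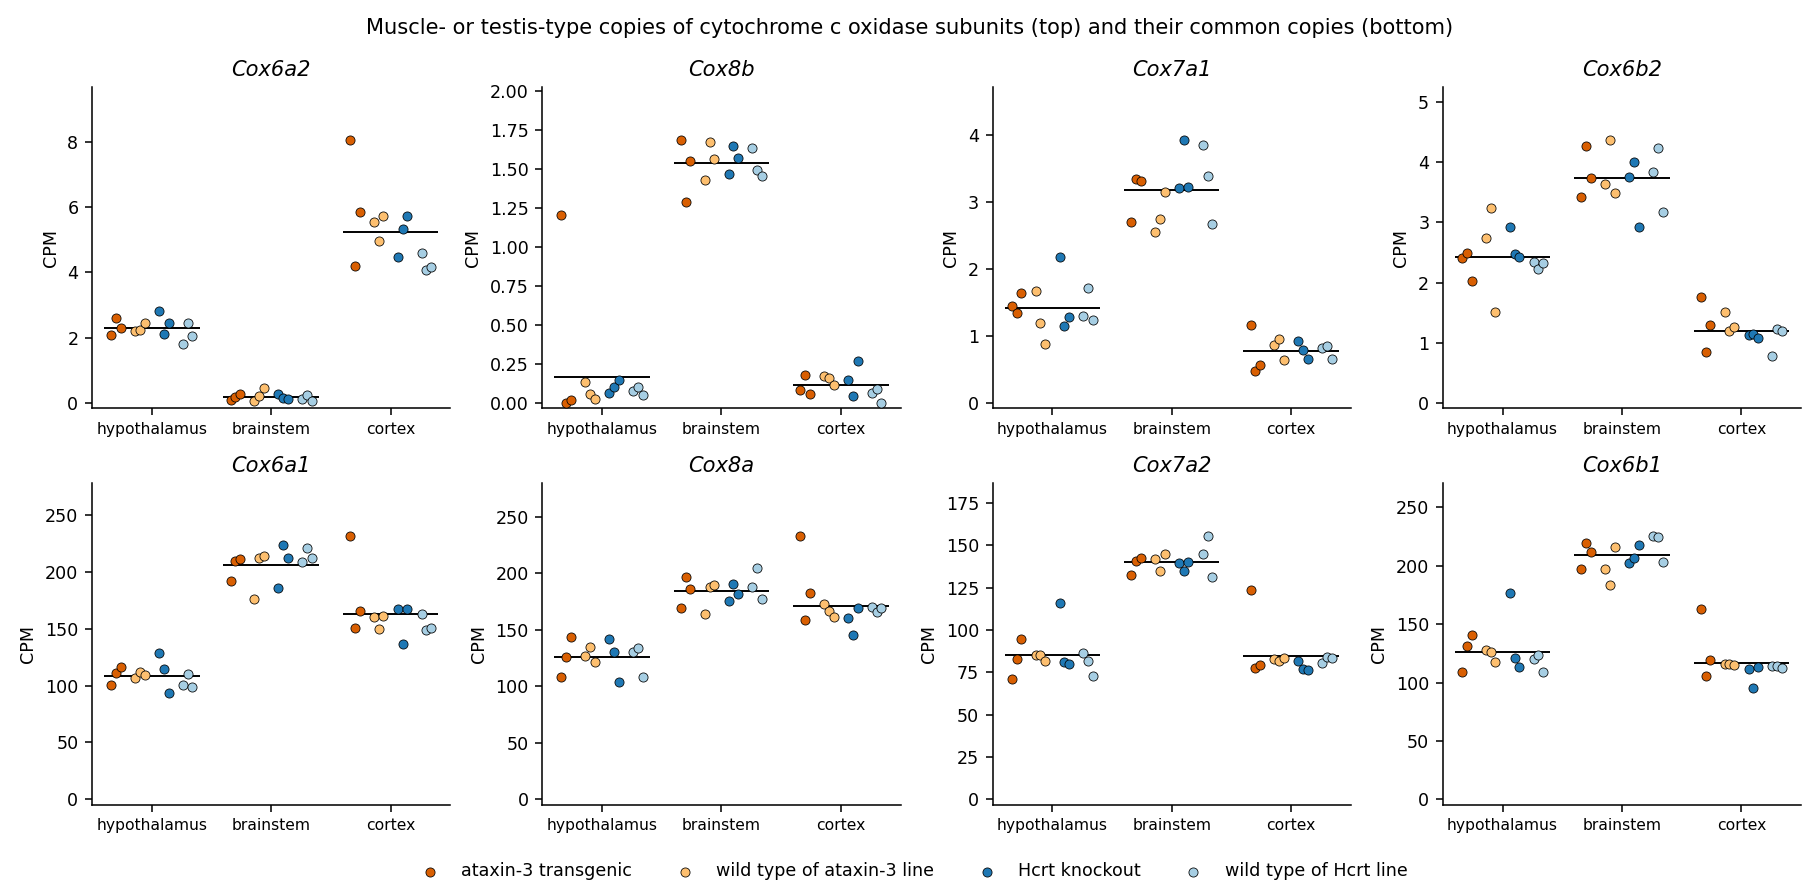
Levels (vertical axes, TMM-scaled CPM) of 4 muscle- or testis-type copies of complex IV subunits (top) and their common partners (bottom) in 36 libraries by region; colours mark genotypes and bars the mean of 12 libraries. Cox6a2 is highest in cortex and lowest in brainstem, Cox8b, Cox7a1 and Cox6b2 are highest in brainstem, and the scales of the 2 rows differ widely.

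Promoter sequences (RefSeq, GRCm38.p6, 250 bases before to 50 after the start site) were matched for 65 of the 80 members by symbol. Several factors are known to bind promoters of these genes, so 4 short motifs were searched on both strands: GCATGCG, the core of the NRF1 site, CCGGAAG for GABPA, AAGATGGC for YY1 and GGGCGGG for SP1. The NRF1 core was present in 15.4% of member promoters and 5.14% of all protein-coding ones, GABPA letters in 21.5% and 13.3%, YY1 letters in 15.4% and 3.62%, and SP1 letters in 33.8% and 38.2%. The YY1 letters were in 7 of 31 complex I promoters, 3 of 15 in complex V, 0 of 5 in complex III and 0 of 14 in complex IV. A match is only a run of letters. The sequences below are those of the copies that parted most between regions and had an entry, Cox8b with its partner Cox8a, and Cox6a1, the partner of Cox6a2, followed by Ndufb8 and Atp5j as members with a YY1 match. Capitals mark the NRF1 core, GABPA and YY1 letters on either strand, and positions count from 0 at the start base.
Cox8b (chr7:140900397-140900696, minus strand): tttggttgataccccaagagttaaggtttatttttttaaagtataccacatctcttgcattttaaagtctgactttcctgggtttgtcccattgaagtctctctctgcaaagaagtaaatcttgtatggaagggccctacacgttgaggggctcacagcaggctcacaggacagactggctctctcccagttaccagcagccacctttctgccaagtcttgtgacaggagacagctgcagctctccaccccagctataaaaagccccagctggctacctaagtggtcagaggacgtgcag
Cox8a (chr19:7217567-7217866, minus strand): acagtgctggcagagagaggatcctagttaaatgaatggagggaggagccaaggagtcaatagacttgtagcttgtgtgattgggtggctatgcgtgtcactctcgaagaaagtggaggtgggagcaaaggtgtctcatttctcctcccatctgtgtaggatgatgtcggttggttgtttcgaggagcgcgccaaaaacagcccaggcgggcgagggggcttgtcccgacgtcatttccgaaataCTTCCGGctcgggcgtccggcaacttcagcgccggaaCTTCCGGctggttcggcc
Cox6a1 (chr5:115348909-115349208, minus strand): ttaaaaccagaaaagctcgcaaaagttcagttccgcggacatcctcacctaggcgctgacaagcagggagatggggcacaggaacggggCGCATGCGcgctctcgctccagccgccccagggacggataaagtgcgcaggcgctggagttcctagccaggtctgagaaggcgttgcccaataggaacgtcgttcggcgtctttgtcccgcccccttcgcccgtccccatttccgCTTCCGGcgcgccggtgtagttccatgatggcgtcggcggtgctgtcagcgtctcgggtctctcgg
Ndufb8 (chr19:44555393-44555692, minus strand): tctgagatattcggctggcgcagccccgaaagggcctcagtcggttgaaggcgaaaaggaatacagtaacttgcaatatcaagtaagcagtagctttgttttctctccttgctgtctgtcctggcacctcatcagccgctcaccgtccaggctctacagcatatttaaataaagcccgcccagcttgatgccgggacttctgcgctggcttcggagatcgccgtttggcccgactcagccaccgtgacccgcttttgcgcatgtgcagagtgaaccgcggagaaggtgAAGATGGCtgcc
Atp5j (chr16:84834927-84835226, minus strand): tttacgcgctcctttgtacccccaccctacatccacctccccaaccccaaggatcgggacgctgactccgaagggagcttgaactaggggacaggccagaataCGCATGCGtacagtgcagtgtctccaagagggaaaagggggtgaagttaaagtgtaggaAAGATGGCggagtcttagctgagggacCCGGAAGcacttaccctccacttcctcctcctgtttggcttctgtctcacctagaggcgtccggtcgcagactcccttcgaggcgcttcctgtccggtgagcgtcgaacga
Cox8b holds none of these motifs in the window, while Cox8a holds GABPA letters at -5 and 32. Cox6a1 holds an NRF1 core, read on both strands from -161 and -160, and GABPA letters at -16. Ndufb8 holds YY1 letters at 38, and Atp5j an NRF1 core at -147 and -146, YY1 letters at -88 and GABPA letters at -61. SP1 letters are not marked above, and they also occur in Cox6a1 and Ndufb8, as CCCGCCC on the strand printed.

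Other genes of the pathway were described from lists of known function, in each of the 3 region comparisons. The 4 genes of complex II, which is wholly nuclear and oxidises succinate, were higher in hypothalamus than cortex (4 of 4), higher in brainstem than cortex (4 of 4) and lower in hypothalamus than brainstem (4 of 4), with medians of 0.41, 0.70 and -0.35. Sdha, its flavoprotein, changed by 0.50 (SE 0.0297), 0.66 (SE 0.0297) and -0.16 (SE 0.0296). Among 8 other carriers and subunits, 7 were higher and 0 lower in brainstem than cortex, including Cyc1, the haem subunit of complex III, by 0.80 (SE 0.0419), and Etfa, which carries electrons from fatty acid oxidation, by 1.01 (SE 0.0461). The 41 assembly factors tested were less uniform. In brainstem against cortex 29 were higher and 7 lower around a median of 0.28. Atpaf1, which assembles the catalytic head of ATP synthase, was higher by 1.10 (SE 0.0383). Cox17, a copper chaperone for complex IV, was lower, with a log2 fold change of -1.22 (SE 0.0655), and Ttc19, which clears fragments of complex III, likewise at -0.72 (SE 0.0258).

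The mitochondrially encoded subunits did not follow the nuclear ones throughout. Of 13 such genes 8 passed the filter on low counts, and in each region 8 of the 13 had a median level above 0. The list still summed to medians of 35120, 56780 and 52480 CPM in hypothalamus, brainstem and cortex. Why the rest had so few counts was not tested, and how reads of these genes were counted is not given. The medians below therefore cover the 8 genes and not the whole set. In hypothalamus against cortex 0 were higher and 6 lower, with a median of -0.51, where the nuclear members had a median of 0.21. In brainstem against cortex 4 were higher and 0 lower, with a median of 0.15. In hypothalamus against brainstem 7 of 8 were lower, with a median of -0.56. mt-Co1, the catalytic subunit of complex IV, changed by -0.67 (SE 0.0394) between hypothalamus and cortex and by 0.14 (SE 0.0392) between brainstem and cortex. Of 12 regulators, 1 was higher and 10 lower in hypothalamus than cortex, and 4 higher and 5 lower in brainstem than cortex. Esrrg and Esrra, nuclear receptors that regulate mitochondrial genes, were higher in brainstem than cortex, by 1.96 (SE 0.0726) and 0.66 (SE 0.0463), and lower in hypothalamus than cortex, with log2 fold changes of -0.78 (SE 0.0728) and -0.76 (SE 0.0472). Ppargc1a, their coactivator, was lower in hypothalamus than brainstem, at -0.91 (SE 0.0552).

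Between genotypes no member passed the threshold in any region or model. In ataxin-3 transgenic hypothalamus, the region that holds the hypocretin cells, the median log2 fold change over the wild type was 0.02 and 47 of 78 members were higher. The threshold was passed by 0 members and by 0.00597% of all genes tested (edgeR), 0 members and 4.16% of all genes had an unadjusted p under 0.05, and DESeq2 and limma voom also called 0 members. The member with the smallest p was Ndufa4l2, at 1.35, 1.31 and 1.15 CPM in the transgenic libraries and 1.54, 1.73 and 1.41 CPM in the wild type. All 3 transgenic values lay below the wild-type ones, with a log2 fold change of -0.29 (SE 0.181, adjusted p = 1). Of all members it was the 1 whose groups did not overlap, where 4.7% of all genes were wholly lower and 5.21% wholly higher. It was followed by Cox7a1, Ndufb11, Atp5g1 and Ndufa7, at 0.26, 0.10, -0.08 and -0.08, none past the threshold. The median SE of a member in this comparison was 0.14. Without the libraries holding pituitary or nasal transcripts the median of the members was 0.08. Library 2 was then the only wild-type library of this line, so its spread could not be measured.

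In Hcrt knockout hypothalamus 76 of 78 members had a positive log2 fold change, with a median of 0.20. The threshold was passed by 0 members and by 0.0119% of all genes, the unadjusted p was under 0.05 for 0 members and 3.89% of all genes, and DESeq2 and voom called 0. The summed members stood at 10389, 7800 and 7652 CPM in the knockout libraries and at 7999, 7862 and 7293 CPM in the wild type. The first knockout library was above all others and the remaining 2 lay within the wild-type range. Atp5o showed the same, with 226, 157 and 153 CPM in knockout and 157, 154 and 138 CPM in wild type (0.25, SE 0.129, adjusted p = 0.806). Ndufa11, Ndufv2, Ndufb8 and Ndufb10 followed with log2 fold changes of 0.24, 0.26, 0.25 and 0.25, and adjusted p = 0.806 for each. No overlap between the groups was seen for 1 member, Cox6b2, higher in knockout, and for 0 lower, where 3.91% and 3.26% of all genes had none. Without the library that stood apart the median was -0.01, and 0 members were called. Wild-type libraries 1 and 3 are those with high Slc17a7, and the part of this in the members' difference was not tested.

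In ataxin-3 transgenic brainstem 72 of 78 members were higher than in the wild type, with a median of 0.13, and 25 had an unadjusted p under 0.05 (8.35% of all genes did). The adjusted threshold was passed by 0 members and by 0.00606% of all genes, and DESeq2 and voom called 0, with 26 and 29 members at an unadjusted p under 0.05. Cox5b, which binds zinc in complex IV, had 162, 171 and 167 CPM in transgenic libraries and 127, 124 and 159.6 CPM in the wild type. The first 2 wild-type libraries were low and the third was just below the transgenic ones, with a log2 fold change of 0.28 (SE 0.0766, adjusted p = 0.542). Cox4i1 had the same form, with 447, 491 and 488 CPM in transgenic libraries and 353, 336 and 458 CPM in the wild type, at 0.31 (SE 0.0892, adjusted p = 0.542), and its groups overlapped. Ndufa13 and Ndufs6, accessory subunits of complex I, and Uqcr11 changed by 0.27 (SE 0.0791), 0.25 (SE 0.0792) and 0.35 (SE 0.0981). The groups did not overlap for 10 members that were higher and 1 that was lower, where 6.05% and 6.01% of all genes did so. Summed members stood at 11628, 12319 and 12243 CPM in transgenic libraries and at 10676, 10296 and 12025 CPM in the wild type.

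The calls depended on the wild-type libraries. Without wild-type libraries 1 and 2, which left 1 wild-type library assumed to vary like the others, the median was -0.01 and 0 members were called or had an unadjusted p under 0.05. Without wild-type library 3 instead, 20 members and 457 genes were called, the 20 all higher in transgenic mice. The wild type of the ataxin-3 line against that of the Hcrt line had the opposite sign in brainstem: 72 of 78 members were lower, with a median of -0.16, 38 had an unadjusted p under 0.05 (14.9% of all genes did) and 0 passed the adjusted threshold, as did 0.0% of all genes. No overlap between the groups was seen for 24 members that were lower and 1 that was higher, where 7.11% and 8.17% of all genes had none. DESeq2 called 19 of 78 members there, all lower, beside 1.76% of all genes (290), and voom 0. Ndufa13 had 81.5, 84.6 and 104 CPM in the ataxin-3 line's wild type and 109.6, 119 and 118 CPM in the Hcrt line's wild type (-0.36, SE 0.0791, adjusted p = 0.165), and libraries 1 and 2 of the first were again low. Without those 2 libraries the median was -0.02 with 0 called.

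In Hcrt knockout brainstem 18 of 78 members were higher than in the wild type, around a median of -0.03. The threshold was passed by 0 members and 0.0728% of all genes, 0 members and 3.24% of all genes had an unadjusted p under 0.05, and DESeq2 and voom called 0. Ndufa4l2 had the smallest p, with 1.33, 2.05 and 1.84 CPM in knockout and 2.28, 2.23 and 2.02 CPM in wild type (-0.33, SE 0.172, adjusted p = 1), and the groups overlapped. Ndufb4, Atp5s, Ndufb2 and Cox7a2l followed, between -0.19 and 0.08. The groups did not overlap for Ndufb2, higher in knockout, and for Cox7a2l and Uqcrfs1, lower, where 5.2% and 4.64% of all genes did so.

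In ataxin-3 transgenic cortex 75 of 77 members were higher than in the wild type, with a median of 0.19, and 6 had an unadjusted p under 0.05, as did 5.09% of all genes. The adjusted threshold was passed by 0 members and 0.0% of all genes, and DESeq2 and voom called 0, with 12 and 0 members at an unadjusted p under 0.05. Summed members stood at 9420, 7075 and 7143 CPM in transgenic libraries and at 7217, 7118 and 7089 CPM in the wild type. Transgenic library 1 stood above the others, which overlapped the wild type. Cox7c, a membrane subunit of complex IV, had 73.4, 53.2 and 53.2 CPM in transgenic libraries and 52.8, 49.1 and 50.3 CPM in the wild type (0.24, SE 0.0979, adjusted p = 0.751), the groups just apart. Cox7a2l, Atp5o, Ndufv2 and Ndufs4 followed at 0.20, 0.24, 0.23 and 0.22, each with adjusted p = 0.751. No overlap between the groups was seen for 4 members, Cox7c, Ndufs4, Atp5h and Cox7b, all higher, where 4.5% of all genes had none in each direction. Without library 1 the median was -0.01 and 0 members were called.

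In Hcrt knockout cortex 20 of 77 members were higher, around a median of -0.02. The threshold was passed by 0 members and 0.0789% of all genes, 0 members and 3.3% of all genes had an unadjusted p under 0.05, and DESeq2 and voom called 0. Cox6a2 had 4.27, 5.09 and 5.46 CPM in knockout and 4.4, 3.9 and 3.98 CPM in wild type (0.26, SE 0.185, adjusted p = 1), and the groups overlapped. The groups did not overlap for 4 members, all lower in knockout (Atp5g1, Ndufa12, Cox5a and Ndufv3), where 5.6% of all genes did so and 5.12% did in the higher direction.

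**Figure D5:**
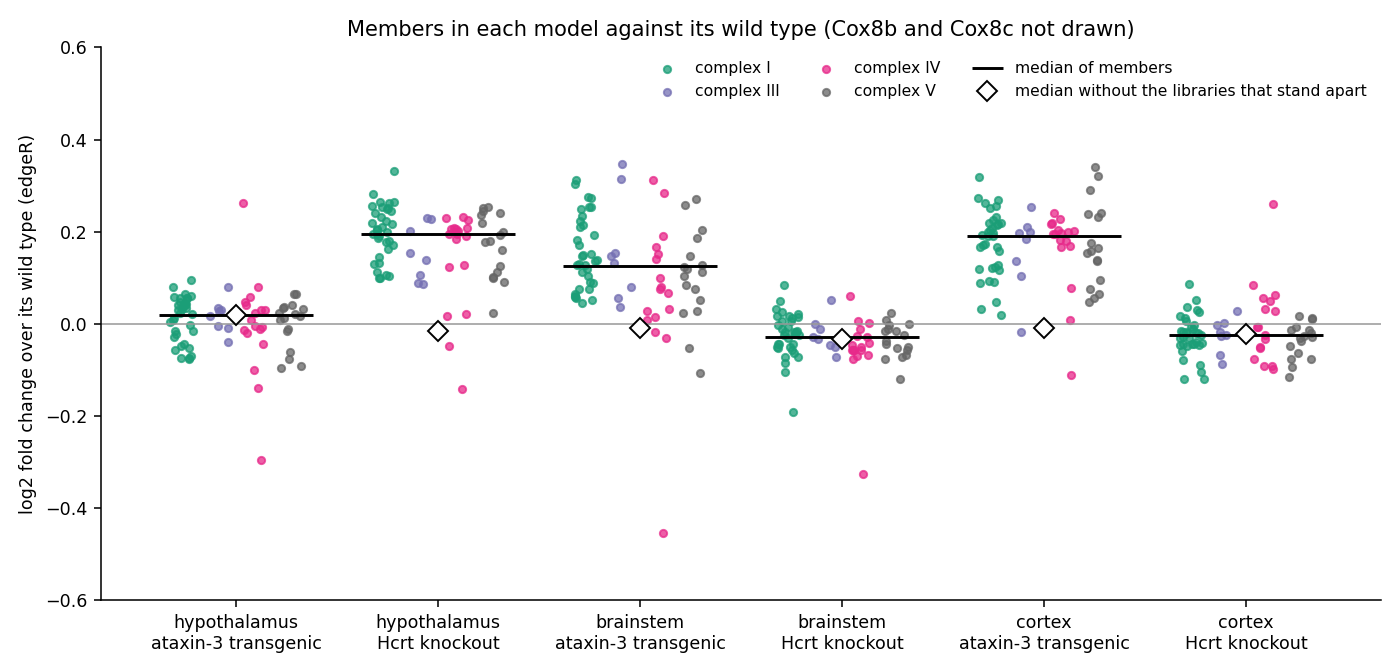
Log2 fold change of each tested member over the wild type of its line (vertical axis) in the 6 region and model combinations, coloured by complex; bars are medians over all libraries and diamonds medians without the 4 libraries that stood apart. Medians run from -0.03 to 0.20, and the diamonds from -0.03 to 0.02.

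The transgenic and knockout effects were also set against each other. The median difference, transgenic minus knockout, was -0.17 in hypothalamus, 0.15 in brainstem and 0.20 in cortex, with 0 members past the threshold in each region by edgeR, DESeq2 and voom, and 0, 11 and 0 with an unadjusted p under 0.05, beside 2.26%, 4.75% and 3.13% of all genes. Without the 4 libraries the medians were 0.03, 0.02 and 0.02. Among all genes 0.0%, 0.0% and 0.0243% passed in these comparisons. By region, the transgenic effect in hypothalamus minus that in cortex had a median of -0.17 and the knockout effect 0.21, and without the 4 libraries 0.02 and 0.01. For brainstem minus cortex the medians were -0.05 for the transgenic effect and -0.0043 for the knockout effect, and without the 4 libraries -0.0016 and -0.0037. No member passed in these 4 differences by any of the 3 tools, and at most 0.00564% of all genes did by edgeR. Unadjusted p-values under 0.05 were found for 4.73% (hypothalamus minus cortex) and 2.87% (brainstem minus cortex) of all genes in the transgenic effect, and for 4.07% and 1.55% in the knockout effect. By edgeR 1 member had one, Cox8b in the transgenic effect of hypothalamus minus cortex (log2 difference 3.02, SE 1.36, adjusted p = 1), and 53 of its counts came from transgenic hypothalamus library 1. The wild types of the 2 lines differed by a median of 0.05 in hypothalamus and -0.0015 in cortex, with 0 members called by edgeR, DESeq2 and voom and 0 with an unadjusted p under 0.05 by edgeR, beside 2.29% and 3.26% of all genes. In hypothalamus 10 members did not overlap between the wild types, all higher in the ataxin-3 line, where 5.79% of all genes did so and 5.61% did in the lower direction. In cortex 3 were higher and 0 lower without overlap, where 5.05% and 5.46% of all genes did so.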

How the data were processed

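Counts per gene were made by the authors and deposited as whole numbers, 1 table per library. The submitters' processing notes name cutadapt 1.2.1, TopHat2 2.0.9, HTSeq 0.5.4p3 and GRCm38. Strand setting, overlap mode and annotation release: not given in the sources used here. The kit marks strand, but 28 members overlap a gene on the other strand and 12 one on the same strand, so such reads cannot be told apart here. Rows that name no gene (24.7% to 42.0% of a library) were left out. Symbols, positions and exon lengths came from GENCODE M21, which named 37607 of the 38924 identifiers. TPM was computed from the counts and merged exon lengths.

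Counts were tested with edgeR 4.0.16 (robust quasi-likelihood fit, TMM factors, filterByExpr) in R 4.3.3. Regions were compared in 1 fit of 36 libraries, and genotypes in a fit of the 12 libraries of a region. P-values were Benjamini-Hochberg adjusted over all genes tested, with a threshold of 0.05, and SE is the log2 fold change divided by the root of F. Tests were first run on simulated data. Alternatives were DESeq2 1.42.0, limma 3.58.1 voom with quality weights, RLE factors, other count filters, a replicate block, only the groups compared, wild types only, another transcript length, and leaving out libraries. Leaving out the 4 libraries that stood apart (short against long mRNAs off by over 0.5, or unassigned reads over 4 points above the region's median) and the principal transcript length were chosen after seeing the data.

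Members and gene lists were chosen with earlier results of these data known. Members were named where they had the largest region changes without overlap (up to 4 per complex and direction), the 5 smallest p between genotypes, the highest or lowest level of a complex, or belonged to a pair of copies. Of the members this rule picks, 1 is not reported here. Core subunits, common complex IV copies and the least changed members were added after their values were seen. Same-numbered libraries deviated together (r over 0.1 in all 3 pairs) in 2 of the 6 comparisons of a model with its wild type within a region: transgenic hypothalamus (0.12 to 0.33) and knockout brainstem (0.13 to 0.50). The labels do not say what a number marks. No 2 libraries of a group agreed within sampling noise. Depth limits the rare copies, whose counts are given beside their values. Biological variation between libraries (edgeR's common coefficient) reached 18.0% in hypothalamus, against 9.03% in brainstem and 7.35% in cortex.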

Additional observations from a re-analysis of the deposited data

How the results depend on the processing

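Over all settings run, between 49 and 63 members were called in hypothalamus against cortex, 74 to 76 in brainstem against cortex and 73 to 79 in hypothalamus against brainstem, and every median kept its sign. No member was called between genotypes, except as follows. In brainstem the wild types of the 2 lines gave 19 members with DESeq2 and 2 without a filter. Leaving out 1 library at a time gave 0 to 20 members for transgenic against wild type in brainstem, 0 to 8 for the transgenic minus knockout effect there, and 0 to 32 for the wild types, each time at its highest without wild-type library 3 of the ataxin-3 line. Correlations of same-numbered libraries ran from -0.41 to 0.50 within a region, 11 of 18 over 0.1. With a replicate block 0 members were called between genotypes, 58 in hypothalamus against cortex, 75 in brainstem against cortex and 79 in hypothalamus against brainstem.

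Signs turned for small or sparse values, and the cause was not tested. Values are log2 fold changes, and ranges are over leaving out replicates. For hypothalamus against cortex, Cox7a2 was -0.0083 without a filter, -0.000252 with a CPM minimum and -0.0041 in wild types. Cox8b was -0.625 with voom, -0.906 without the pituitary or nasal libraries, -0.212 in wild types and -0.998 to 0.585 over replicates. Cox7b was 0.0359 and Ndufa4 0.0087 without those libraries, and Cox7b ran from -0.0203 to 0.0223. Cox7b2 was 0.177 in wild types and ran from -0.226 to 0.0904. For brainstem against cortex, Cox4i2 was 0.0342 with voom, 0.177 without the 4 libraries, 0.0523 in wild types and -0.131 to 0.149 over replicates, and Ndufa4l2 ran from -0.0207 to 0.182. Atp5g1 in transgenic hypothalamus was 0.0108 with voom and ran from -0.127 to 0.0102. Atp5l between cortical wild types ran from -0.0035 to 0.194. For the transgenic effect in hypothalamus minus cortex, Cox8b was -0.701 with voom, -1.47 without the pituitary or nasal libraries and -1.27 to 3.86 over replicates. In brainstem minus cortex, voom gave Cox6a2 0.108, Cox6a1 0.0204 and Atp5s 0.00051 for the transgenic effect, and Atp5s was 0.0349 without the 4 libraries. Ndufa4l2 in the knockout effect there ran from -0.696 to 0.122.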

Other observations

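Glycolytic genes, which supply pyruvate upstream of the respiratory chain, were described in the same way; 1 of them, Eno2, is also among the neuronal markers. Of 16 tested, 4 were higher and 8 lower in hypothalamus than cortex (median -0.08), and 11 were higher and 5 lower in brainstem than cortex (median 0.17). Cytosolic ribosomal protein genes were higher in hypothalamus than cortex for 70 genes and lower for 4 (median 0.61), and higher in brainstem than cortex for 62 and lower for 3 (median 0.37). They were higher in hypothalamus than brainstem for 52 and lower for 3 (median 0.25), where the members had a median of -0.54. Non-member mRNAs of up to 1000 bases had a median of -0.02 in that comparison.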
